A study of Mus musculus with 16 samples.

Results

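Platr genes are the 30 mouse genes of the GENCODE M21 annotation whose name is Platr followed by a number, and 22 of them had at least 1 OCT4 peak inside the gene body or within 10 kb of an annotated transcript start. Together they held 44 of the 26704 peaks of the merged OCT4 peak list of 2TS22C embryonic stem (ES) cells, and 0 peaks were shared between Platr genes. A peak was given to a gene by its midpoint, on genome build GRCm38 (mm10). The comparison was made with all 5834 other genes annotated as lincRNA (long intergenic non-coding RNA), of which 30% had a peak under the same rule.

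The series asked how OCT4 and SOX2 shape the chromatin of mouse ES cells, and comprises 16 ChIP-seq libraries in 8 groups of 2 replicates. The list comes from the OCT4 ChIP-seq of 2TS22C cells, an ES cell line in which a Tet-Off promoter drives a transgene that is the only source of Sox2. The groups were SOX2 ON (untreated, 2 libraries) and SOX2 OFF (doxycycline at 1 µg/ml for 26 h, 2 libraries), all grown in serum with LIF, CHIR99021 and PD184352. Some SOX2 was still present in the study's cells after 26 h of doxycycline. The list merges peaks without a height or a library of origin, so SOX2 ON could not be compared with SOX2 OFF, no value below has a replicate behind it, and the depth is unknown. A peak missing from the list cannot be told from one under the calling threshold.

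Platr stands for pluripotency-associated transcript. These genes were named as a group of long non-coding RNAs (lncRNAs) whose RNA is present in ES cells and declines on differentiation, and knockdown of a few of them has been tied to changes in the ES cell state. OCT4 (encoded by Pou5f1) is a POU-domain factor that is required for the pluripotency of ES cells and binds DNA alone at an octamer or together with SOX2 at a composite OCT4::SOX2 motif. The files hold no RNA values, so the pluripotency part of the label could not be checked here. The non-coding part held for most members: the annotation gives 20 as lincRNA, 6 as processed_transcript, 1 (Platr31) as antisense and 1 (Platr32) as sense_intronic, but Platr17 and Platr25 are annotated as protein_coding. Numbers 18 and 24 have no gene of that name in the annotation. As a check of the cell type, 25 of 27 protein-coding pluripotency genes had a peak under the same rule, against 44.3% of all protein-coding genes, among them Pou5f1 (3 peaks), Sox2 (2) and Nanog (2), while Klf4 and Klf5 had 0.

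Composite motif matches were found in 11 of the 44 peaks, at 10 genes. The motif searched was CATTGT, 1 base of any kind and ATGCAAAT, on both strands, with at most 3 of the 14 fixed bases mismatched, and its second part is the octamer. The matches are printed to show the sequence closest to this motif in each of these peaks. Whether OCT4 or SOX2 binds them was not tested. Each is read 5′ to 3′ on the strand of the motif, with the 15-base match in capitals and 7 bases of mm10 to each side in lower case. Their positions and strands are Platr5 chr1:88746421-88746449 (plus), Platr8 chr2:109913355-109913383 (plus), Platr9 chr4:34903057-34903085 (minus), Platr10 chr3:75650929-75650957 (plus), Platr10 chr3:75651910-75651938 (plus), Platr11 chr9:118406349-118406377 (minus), Platr19 chr12:12787396-12787424 (plus), Platr26 chr2:71719162-71719190 (plus), Platr27 chr2:157589403-157589431 (minus), Platr28 chr7:107284711-107284739 (minus), Platr30 chr3:96340865-96340893 (plus).
Platr5: tttgttaCATGGAAAAGCAAATtgagtta
Platr8: tggaaatCATTGTTAAGCAAAAgaagcca
Platr9: aatgacaGATTGTTATGTAAATaaaaacc
Platr10 (nearer its internal start): ctccgtcTTTTGTAATGCTAATtagttac
Platr10 (farther from it): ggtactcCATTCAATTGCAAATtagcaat
Platr11: tgtattgTATTGTAATGCTAAAttaggta
Platr19: ttaattcCATTGTGCTGTTAATggaagag
Platr26: tagggccCATTTTCATTCAAACtatcatg
Platr27: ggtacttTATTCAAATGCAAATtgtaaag
Platr28: ggctgccAAATGTTATGCAAATaagcttg
Platr30: ctgagtcCACTGTTGTGGAAATtccgaca

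The match at Platr8 had 2 mismatches, T9A and T15A, where the first letter is the base of the motif, the number counts from 1 at its 5′ end and the last letter is the base in the genome. Those at Platr9 (C1G and C11T) and Platr28 (C1A and T3A) also had 2, and the other 8 matches had 3. The octamer was intact in the matches at Platr27 and Platr28. The Platr27 match and the match farther from the internal start of Platr10 shared the changes G5C and T6A.

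The central 200 bases of the 4 peaks nearest to a Platr transcript start are also shown, since these peaks lie where the transcripts begin. They are read 5′ to 3′ in the direction of the gene, from mm10, with a composite match in capitals where the peak has one. Positions and gene strands are Platr8 chr2:109913257-109913456 (minus), Platr22 chr1:136696073-136696272 (plus), Platr9 chr4:34911498-34911697 (minus), Platr26 chr2:71719100-71719299 (plus). The annotated first base of the transcript is base 138 of the Platr8 sequence and base 139 of the Platr22 sequence, and lies outside the other two.
Platr8: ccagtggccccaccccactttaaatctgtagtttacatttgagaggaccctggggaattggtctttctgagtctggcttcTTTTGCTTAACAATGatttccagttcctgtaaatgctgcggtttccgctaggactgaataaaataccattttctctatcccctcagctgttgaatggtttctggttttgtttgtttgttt
Platr22: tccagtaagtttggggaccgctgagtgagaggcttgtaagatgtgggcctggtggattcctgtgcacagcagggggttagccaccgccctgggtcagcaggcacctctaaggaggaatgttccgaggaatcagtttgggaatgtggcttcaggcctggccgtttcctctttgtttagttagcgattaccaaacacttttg
Platr9: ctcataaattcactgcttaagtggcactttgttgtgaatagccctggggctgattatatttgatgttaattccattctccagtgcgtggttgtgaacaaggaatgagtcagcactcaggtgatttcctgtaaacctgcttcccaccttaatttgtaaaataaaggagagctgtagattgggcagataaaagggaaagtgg
Platr26: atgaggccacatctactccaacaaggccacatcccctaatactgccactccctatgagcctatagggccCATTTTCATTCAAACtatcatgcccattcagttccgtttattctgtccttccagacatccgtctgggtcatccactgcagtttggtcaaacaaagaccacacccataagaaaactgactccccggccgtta

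OCT4 peaks were found at Platr genes more often than at other lincRNA genes. Of the Platr genes 73.3% (22 of 30, 95% Wilson interval 55.6 to 85.8) had a peak, against 30% (1752 of 5834, 28.9 to 31.2) of the other lincRNA genes. At least 2 peaks were found at 14 Platr genes (46.7%, 30.2 to 63.9) against 9.67%, and at least 3 at 3 Platr genes (10.0%, 3.46 to 25.6) against 2.98% of the other lincRNA genes. The median Platr gene had 1 peak and the median lincRNA gene 0. The mean was 1.47 ± 1.55 peaks (SD, n = 30 genes) against 0.472, and the whole searched sequence held 43.5 peaks per Mb around Platr genes and 13.6 per Mb around other lincRNA genes. The intervals cover counting error only, since genes are not replicates, and no test was run.

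**Figure D1:**
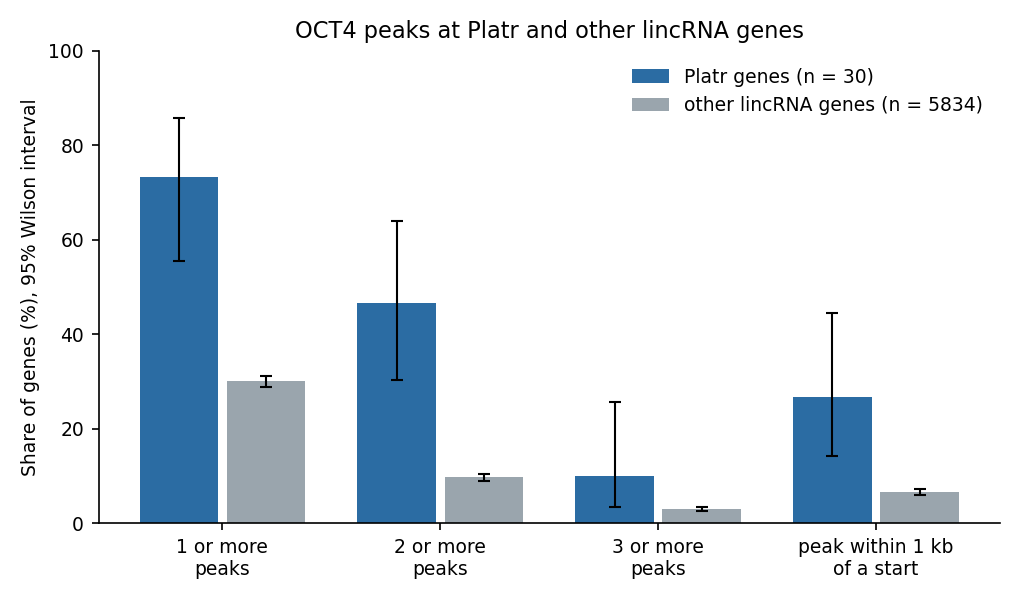
Share of genes (%) with 1 or more, 2 or more and 3 or more OCT4 peaks and with a peak within 1 kb of a transcript start, for 30 Platr genes (blue) and 5834 other lincRNA genes (grey), with 95% Wilson intervals that cover counting error only. The Platr bars are at 73.3%, 46.7%, 10.0% and 26.7%, and the grey bars at 30%, 9.67%, 2.98% and 6.67%.

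The shares differed most where the searched sequence was short. Where the searched sequence was at most 25 kb, 17 of 21 Platr genes (81.0%, 60 to 92.3) had a peak against 25.3% (23.9 to 26.6) of lincRNA genes. Between 25 and 50 kb it was 3 of 5 Platr genes (23.1 to 88.2) against 35.0%, and above 50 kb 2 of 4 (50.0%, 15 to 85) against 48.6%. Both of these intervals include 81.0%, so with so few long Platr genes a trend with length is not shown. The difference was about as large without a protein-coding start inside the window. Of the 22 Platr genes without one, 16 had a peak (72.7%, 51.9 to 86.9), against 27.5% of such lincRNA genes, and of the 8 with one, 6 had a peak, against 42.4%. By annotation type, 14 of the 20 lincRNA members had a peak and 5 of the 6 processed_transcript members, while 44.1% of all other processed_transcript genes, 35.7% of antisense genes and 44.3% of protein-coding genes had one. Of 13 other lncRNA genes studied in ES cells, among them Lncenc1, Sox2ot, Firre, Neat1 and Malat1, 10 had a peak (76.9%, 49.7 to 91.8), with a median of 1. Their interval overlaps that of the Platr genes. Tunar (annotated as protein_coding), Miat and Tug1 had 0, and Oip5os1, also listed, had no match in the annotation. Since RNA was not measured, the lincRNA genes could not be limited to those expressed in ES cells, and the part of expression in the difference was not tested.

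Peaks at the transcript start were found at 8 Platr genes, or 26.7% (14.2 to 44.5), against 6.67% of the other lincRNA genes. These 8 genes held 10 peaks with a midpoint within 1 kb of a start, and 8 of the 10 were upstream of it. At Platr8 (chr2:109902396-109913319, minus strand, 5 exons), 4.33 kb from the start of the R-spondin receptor gene Lgr4, a peak of 626 bp had its midpoint 37 bp upstream of the start, and the composite match printed above was centred 50 bp upstream. Platr22 (chr1:136696211-136726142, plus strand), 71.3 kb from the start of Zfp281, a zinc-finger factor gene active in ES cells, had peaks 39 bp and 943 bp upstream, neither with any of the 3 motifs searched. Platr9 (chr4:34906124-34911481, minus strand), 17.7 kb from the start of Cga, which encodes the alpha subunit of glycoprotein hormones, had a peak 116 bp upstream. The composite match printed for Platr9 is in its other peak, past the gene's end, 8.31 kb from the start and inside Cga. Platr26 (chr2:71719417-71730966, plus strand), 67.5 kb from the laminin receptor gene Itga6, had one 218 bp upstream with a match centred 241 bp upstream.

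Platr11 (chr9:118404097-118406099, minus strand) starts 72.1 kb from Eomes, a T-box factor gene of trophoblast and mesendoderm. Its single peak of 571 bp lay 244 bp upstream of the start, with a match centred 264 bp upstream. Platr19 (chr12:12787985-12794285, plus strand), 153 kb from the proto-oncogene Mycn, had peaks on both sides of its start, 513 bp upstream and, in its only intron, 672 bp downstream of the start, and another 3.63 kb upstream. Its match lay in the first of these, 575 bp upstream. Platr6 (chr10:21830499-21844851, minus strand), 37.3 kb from the kinase gene Sgk1, had a single peak 997 bp upstream of its GENCODE start, just inside the 1 kb limit. Platr7 (chr10:84547417-84553338, minus strand) had 1 that was just outside it, 1.30 kb upstream and 645 bp wide. Platr10 (chr3:75647446-75655731, minus strand) had a peak in an exon 390 bp downstream of its internal start, but none at its main start. Only Platr8, Platr11, Platr19 and Platr26 combined a peak within 1 kb with a composite match in that peak.

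**Figure D2:**
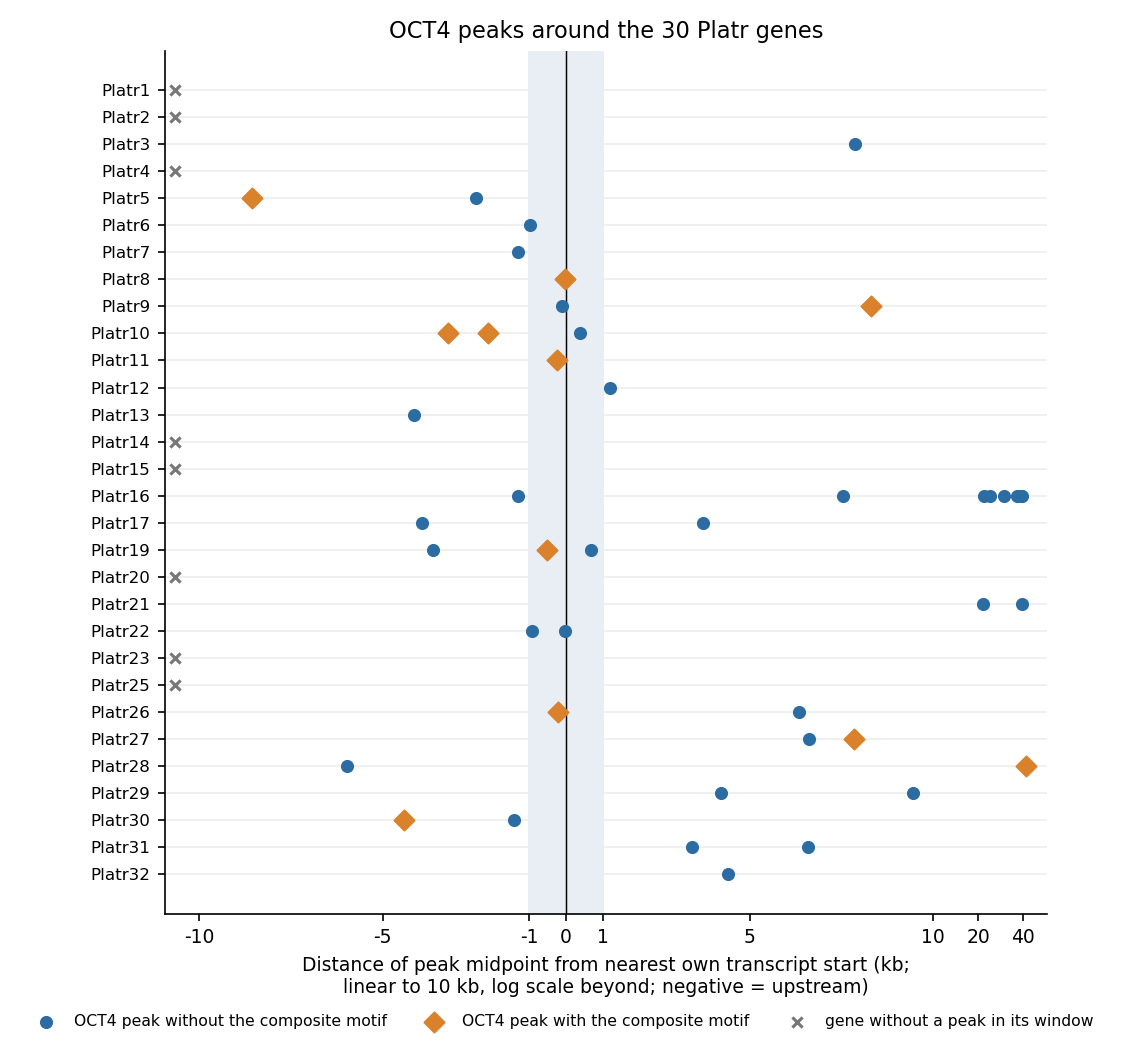
Distance in kb of each of the 44 OCT4 peak midpoints from the nearest transcript start of its own Platr gene (negative is upstream, linear to 10 kb and logarithmic beyond, 1 kb on each side shaded), 1 row per gene. Orange diamonds are the 11 peaks with the composite motif, blue points the others and grey crosses the 8 genes without a peak. The row of Platr16 holds 8 points, 6 of them over 20 kb from the start.

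RefSeq promoter windows, which run from 250 bases before to 50 after a gene's start, were at hand for 13 of the 30 genes, with 15 windows in all. Peaks overlapped 5 of the 15, at Platr6, Platr8, Platr9, Platr22 and Platr26, against 5.51% of all 32851 windows. The 32851 were not limited to lincRNA genes, and no interval was computed for counts over the 15. The Platr6 peak (chr10:21845710-21845986) met only the edge of its window (chr10:21845984-21846283, minus strand). Its midpoint was thus downstream of that RefSeq start, though upstream of the GENCODE start. The composite motif was in 3 of the 15, at Platr8, Platr14 and Platr26, against 2.67% of all windows. At Platr14 the window held the letters but no peak.

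Platr16 (chr4:145410245-145449756, plus strand) had the most peaks. It held 8, or 162 per Mb searched, which placed it at percentile 99.9 of the other lincRNA genes. Other lincRNA genes farther along this stretch of chromosome 4 also held many peaks, 7 at Gm26763 (58.3 per Mb), 34 at Gm26573 (38.6), 40 at C230088H06Rik (82.7) and 31 at Gm26624 (93.7), so a high count there was not particular to Platr16. Of the 8 Platr16 peaks, 7 were in the gene body, 6 in introns and 1 in an exon, and the eighth was 1.31 kb upstream. Widths ran from 220 bp to 719 bp. None of the 8 had the composite motif, 1 had the octamer and 1 the SOX core (CCATTGT or CCTTTGT). The gene's 2 starts had no peak within 1 kb. The 2 peaks farthest from its starts lay also in the overlapping gene Gm13230. Without Platr16 the remaining 29 genes held 36 peaks.

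Platr19 and Platr10 followed with 3 peaks each. The Platr10 peaks all lay inside the gene, 1 in an exon and 2 in an intron, 2.13 kb and 3.22 kb upstream of the internal start, and both of the intron peaks had a composite match. Platr5, 9, 17, 21, 22, 26, 27, 28, 29, 30 and 31 had 2 peaks each. Platr5 (chr1:88754890-88755736, plus strand), the shortest of the 30 at 0.847 kb, had both of its peaks upstream, at 2.45 kb and 8.56 kb. Platr30 (chr3:96345287-96358480, plus strand) was alike, with peaks 1.43 kb and 4.42 kb upstream and the match in the farther one. Platr27 (chr2:157595583-157597320, minus strand) had both peaks past its end, 6.63 kb and 7.85 kb from the start. Platr17 (chr17:33905135-33906675, plus strand), of protein_coding type, had 1 on each side, 3.93 kb upstream and 3.74 kb downstream. The latter lay 543 bp from a start of Daxx, which encodes a chaperone of histone H3.3, and was the only Platr peak within 1 kb of a protein-coding start. That is 2.27% of Platr peaks (0.402 to 11.8), against 6.88% of peaks at other lincRNA genes and 11.9% of all peaks.

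Platr29 (chr2:165976757-165985924, minus strand), 6.71 kb from the nuclear receptor coactivator gene Ncoa3, had 1 peak in an intron and 1 past its end. Platr28 (chr7:107243022-107300396, plus strand) had a peak 5.98 kb upstream and another in an exon 41.8 kb into the gene, which holds the composite match with the intact octamer. Both Platr31 peaks were intronic and also inside Tigar, a regulator of glycolysis. Both Platr21 peaks (on the X chromosome) lay in introns more than 20 kb from a start of Platr21. The nearer of them was also inside Trap1a, 1.54 kb from a start of that gene. In all, 10 of the 44 peaks had their midpoint in another annotated gene, so at these 10 the assignment is not to the Platr gene alone. This share was not computed for other peaks, so it cannot be called high or low. The genes with 1 peak were Platr3, 6, 7, 8, 11, 12, 13 and 32. The Platr32 peak was in an intron and also inside Alpk3, and the Platr12 peak in an intron and also inside Gpr1. Platr3 had its peak past the gene's end, 7.88 kb from its own start and 2.93 kb from a start of Plcb4. Platr13, far from any protein-coding start (464 kb), had its own 4.16 kb upstream.

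By place, 18 of the 44 peaks were upstream of the gene (40.9%, 27.7 to 55.6), 17 in an intron (38.6%), 6 downstream (13.6%) and 3 in an exon (6.82%). For other lincRNA genes, with 2754 pairs of gene and peak, these shares were 33.2%, 46.3%, 12.9% and 7.55%. The upstream share of other lincRNA genes is inside the Platr interval. Platr peaks often had company: 32 of 44 had another peak within 10 kb, against 33.9% of all peaks, and without the Platr16 peaks 24 of 36 did (66.7%). This share was not computed for peaks at other lincRNA genes, and it partly repeats that 14 Platr genes had at least 2 peaks.

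The 8 genes without a peak differed in how far the nearest peak was from a start. It was 11.3 kb at Platr23, 16.3 kb at Platr1, 21.6 kb at Platr14, 31.8 kb at Platr25, 34.0 kb at Platr4, 38.01 kb at Platr2, 49.3 kb at Platr15 and 54.1 kb at Platr20. The Platr23 start is 0.251 kb from that of Zfp281, and the Platr20 start 0.055 kb from that of Gm12569, so starts next to a protein-coding start were also among those without a peak. Platr2 and Platr25, the longest of these 8 at 86.4 kb and 88.9 kb, had none in their bodies. Over the 30 genes the median distance from a start to the nearest peak was 3.95 kb (quartiles 1.04 and 15.1 kb), against 34.9 kb (9.63 and 105 kb) for the other lincRNA genes. Within 2.5 kb 43.3% of Platr genes had a peak (27.4 to 60.8) against 11.0%, within 50 kb 96.7% against 58.7%, and within 100 kb all 30 against 73.9%. None of the 30 lay within 100 kb of any of the 27 protein-coding pluripotency genes.

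**Figure D3:**
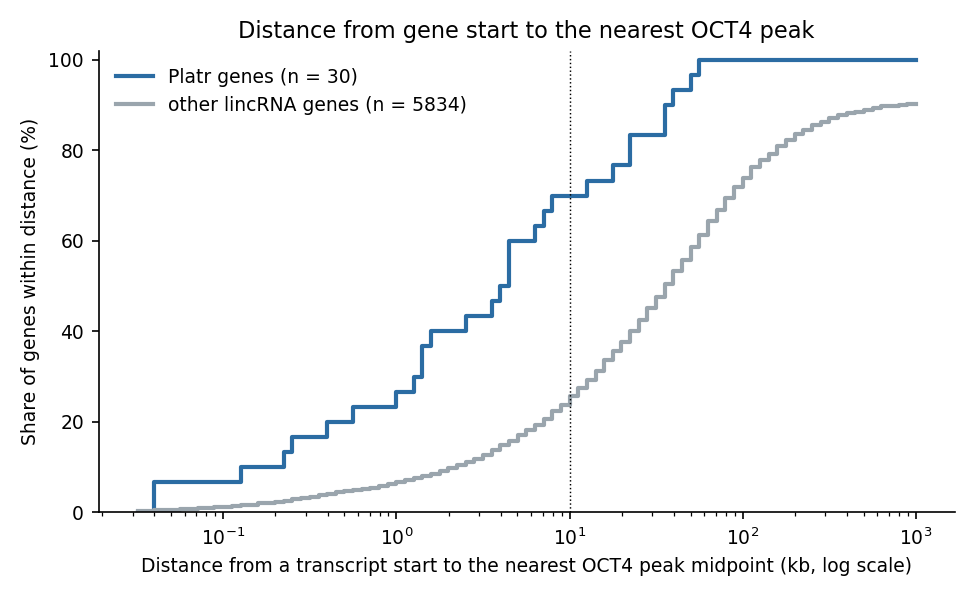
Cumulative share of genes (%) whose nearest OCT4 peak midpoint lies within a given distance of a transcript start (kb, log scale), for 30 Platr genes (blue) and 5834 other lincRNA genes (grey), with a dotted line at 10 kb. At 10 kb the curves stand at 70.0% and 25.6%, and the blue curve reaches 100% at 54.1 kb.

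The composite motif was about as frequent at Platr genes as elsewhere in the list, and the SOX core was counted in a smaller share of the Platr peaks. The composite motif was in 11 of 44 (25.0%, 14.6 to 39.4), close to 21.01% of the 2470 peaks at other lincRNA genes and 22.2% of all peaks. In windows of the same width centred 5 kb to each side, it was in 6.98% of 86 windows for the Platr peaks and in 5.40% of 52501 for all peaks. The octamer without mismatch was in 3 peaks (6.82%), against 11% of all peaks, at Platr16, Platr27 and Platr28. The SOX core was in 7 (15.9%, 7.93 to 29.4), at Platr5, 9, 12, 16, 19, 30 and 31, against 30.3% of all peaks. In the flanking windows it was in 9.30% of those of the Platr peaks and in 13.2% of those of all peaks. Any of the 3 was in 15 (34.1%, 21.9 to 48.9) against 49.7% of all peaks, and this interval lies below that value. Both this interval and that of the SOX core end only just below the share of all peaks. Neither share was recomputed without the Platr16 peaks. The octamer is part of the composite motif, and the SOX core overlaps its first part, so these counts are not independent.

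**Figure D4:**
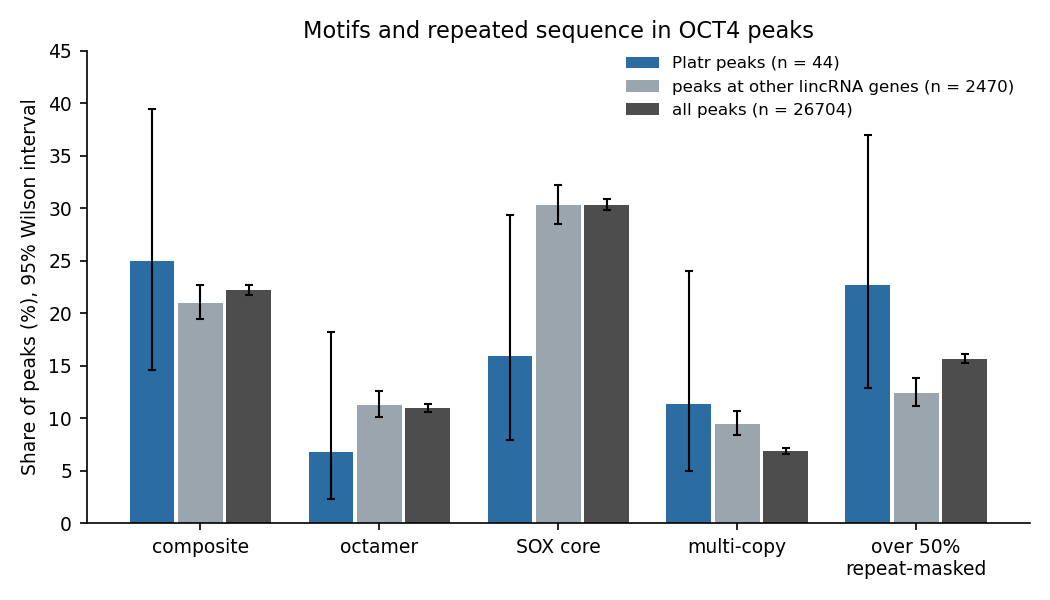
Share of peaks (%) with the composite motif, the octamer, the SOX core, multi-copy sequence or over 50% repeat-masked bases, for the 44 Platr peaks (blue), 2470 peaks at other lincRNA genes (light grey) and all 26704 peaks (dark grey), with 95% Wilson intervals. The composite bars are at 25.0%, 21.01% and 22.2%, and the SOX core bars at 15.9%, 30.3% and 30.3%.

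Platr peaks more often had sequence in common with other OCT4 peaks. A run of 31 bases (31-mer, either strand) found also in another peak of the list was present in 20 of 44 (45.5%, 31.7 to 59.9), against 22.6% of all peaks and 21.5% of those at other lincRNA genes. The most relatives were found for the start peak of Platr9, which shared a 31-mer with 159 other peaks. The Platr10 intron peaks shared one with 131 and 90 others, the Platr13 peak with 90, a Platr27 peak with 44, the farther Platr22 peak with 41 and a Platr21 peak with 27. The relatives were almost all outside the family: 1 pair of Platr peaks, both at Platr16, shared 31-mers (26 of them).

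Repeat-masked bases took a median of 28.8% of a Platr peak, against 13.0% of a peak of the whole list, and exceeded 50% in 10 of 44 (22.7%, 12.8 to 37.0) against 15.7% of all peaks and 12.4% of those at other lincRNA genes. Multi-copy peaks are those with over 50% of 31-mers found at several places in the genome. This held for 5 of 44 (11.4%, 4.95 to 24.0), against 6.86% of all peaks and 9.47% of those at other lincRNA genes, both inside the Platr interval: 2 at Platr27 (90.9% and 87.8% of 31-mers, with a median of 51 and 87 copies), and 1 each at Platr13 (89.9%), Platr16 (78.0%) and Platr30 (60.4%). The Platr30 peak had 0 masked bases, with 2 copies as its median. Reads from such sequence can be placed at the wrong copy, and the effect on these 5 peaks was not tested. Platr peaks were 205 bp to 719 bp wide, with a median of 391.5 bp against 352 bp for all peaks, and 46.9 ± 5.43% GC (SD, n = 44 peaks) against 47.4 ± 6.17%.

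**Figure D5:**
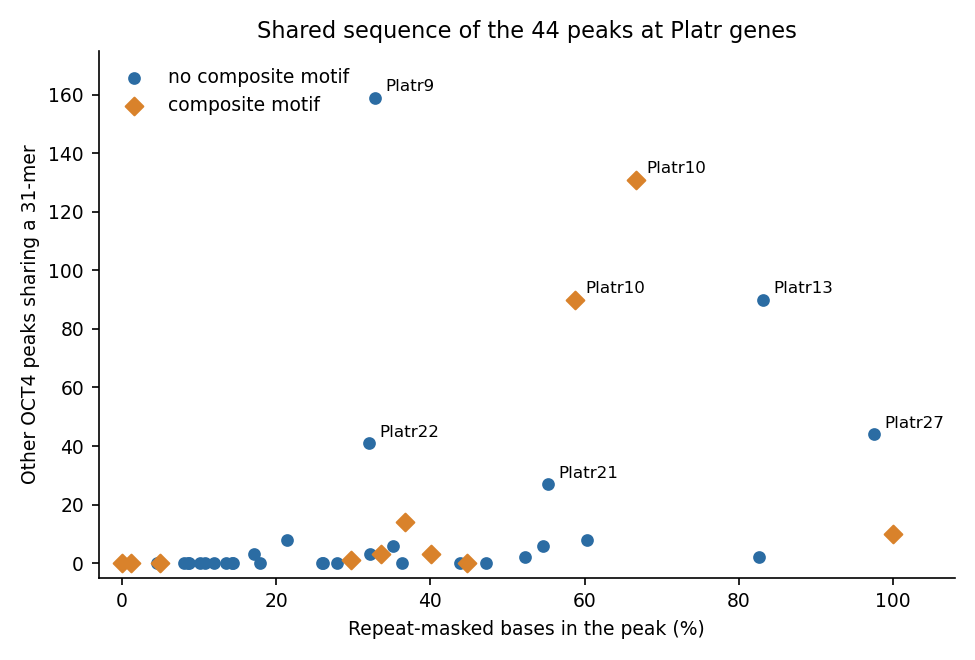
Number of other OCT4 peaks that share a 31-mer with each of the 44 Platr peaks, against the repeat-masked bases in the peak (%), with orange diamonds for the 11 peaks with the composite motif and gene names where at least 20 peaks share one. The Platr9 start peak is highest at 159 with 32.8% of its bases masked, and both Platr10 intron peaks, with the motif, stand at 131 and 90.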

How the data were processed

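OCT4 ChIP-seq was done in 2TS22C cells (4 libraries). Per the submitters' processing notes and the paper, the authors aligned reads with STAR 2.6.1c to mm10, removed duplicates with Picard, ran MACS2 2.1.1.20160309 on read pairs and used BEDTools to merge the resulting files. The deposited values used are chromosome, start and end, in bp. Which libraries were merged is not given in the sources used here. Merging joins overlapping peaks, so a width is that of a union.

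Windows were built from GENCODE M21 on GRCm38, and sequence was read from the RefSeq GRCm38.p6 genome, with lower-case bases taken as repeat-masked. Coordinates are 1-based. Python 3.11.15, NumPy 2.4.6, pandas 2.3.3, SciPy 1.17.1 and matplotlib 3.10.9 were used. The steps were tested on simulated data. All Platr genes are named, in full those with the most peaks (8), a peak within 1 kb of a start or a composite match. All other lincRNA genes took the place of random ones, and no test was run. The members and gene lists were chosen with earlier results of these data known. BRG1 and H3K27ac were not analysed here.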

Additional observations from a re-analysis of the deposited data

How the results depend on the processing

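Of 67 recomputed values for 9 results, 52 moved by less than their spread or counting interval. This measure is wide. With gene bodies only, a mean of 0.667 peaks per Platr gene counted as unmoved from 1.47. So did 30 peaks, from 44, when only peaks of at least 300 bp were kept. The 52 are therefore no measure of stability. The share of Platr genes with a peak was 66.7% at 5 kb, 80.0% at 20 kb and 33.3% with gene bodies only, which left 20 peaks. The share of other lincRNA genes was 23.9% at 5 kb, 40.2% at 20 kb, 25.6% within 10 kb of starts only, 15.7% with bodies only, 22.2% with peaks of at least 300 bp, 28.6% without multi-copy peaks and 32.95% with antisense and processed_transcript genes added. In every one of these settings the Platr share was the higher. Settings chosen after seeing the data gave 42.4% and 27.5% for lincRNA genes with and without a protein-coding start in the window, and 25 peaks for Platr genes of lincRNA type only. The composite share was 6.82% with at most 2 mismatches and 56.8% with at most 4, where all peaks gave 5.11% and 56.5%. Multi-copy peaks were 29.5% of the Platr peaks at a limit of 25%. The share of all peaks was not computed at that limit, so this value has no background beside it. No paired analysis was possible because the merged peak list used here gives coordinates without a value for any replicate, and for the same reason no replicate could be left out. The unknown depth limits every absence.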
